A study of Caenorhabditis elegans with 10 samples.

Results

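The genes described here are the 5 that make and sense the steroid hormone dafachronic acid in Caenorhabditis elegans: daf-36, dhs-16 and daf-9, which encode synthesis enzymes, daf-12, which encodes the nuclear receptor, and din-1, which encodes its corepressor. They were chosen by symbol and not by a rule on measured values, although earlier results of these data were known. All 5 of them were found among the 20182 genes of the deposited count table. Ribosome footprints, the stretches of mRNA that a translating ribosome covers, had been sequenced from monosomes of entire worms of N2, the wild-type laboratory strain. The worms hatched overnight from prepared eggs, were plated on bacteria as first-stage larvae and were left to grow, with no other treatment and no mutant allele in any group. One library was made every 2 h between 18 h and 36 h after plating, which gave 10 groups of 1 library each and no replicate at any time. Library totals lay between 16723638 counts (24 h) and 33696423 counts (26 h).

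Dafachronic acid is made from dietary cholesterol. DAF-36 is the Rieske-type oxygenase of the early step, DHS-16 a 3-hydroxysteroid dehydrogenase, and DAF-9 the cytochrome P450 that oxidises the side chain at the end of the route. Bound to the hormone, the receptor DAF-12 drives reproductive growth and the later larval programmes. Without it, DAF-12 acts with the short form of DIN-1, a SHARP-type corepressor, to hold back those programmes and to allow entry into the dauer stage, the arrested larva formed under crowding or hunger. DAF-9 is known from the paired XXX neuroendocrine cells of the head, from the epidermis and from the spermatheca.

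Receptor, corepressor and 2 of the 3 enzymes lost footprints over the 18 h sampled, while the 2 upstream enzymes went through an 8 h cycle. The fitted change from 18 h to 36 h was -3.80 ± 0.35 log2 for daf-12, -3.12 ± 0.61 log2 for daf-9, -1.82 ± 0.28 log2 for din-1 and -1.49 ± 0.36 log2 for dhs-16 (SE of a curve through 10 libraries). The fitted peak-to-trough difference of the cycle was 2.72 ± 0.32 log2 for dhs-16 and 1.13 ± 0.21 log2 for daf-36. A call needed an adjusted p under 0.05 in edgeR's quasi-likelihood F-test and a size of at least 1 log2. All 5 genes passed the filter on low counts that left 13958 genes for testing. Falling was called for 4 of the 5, beside 10.8% of all genes tested, and oscillation for 2 of the 5, beside 22.7%. None of the 5 was called as rising, beside 15.7%, and daf-36 alone had no called trend. The median over the 5 genes was -1.82 log2 for the trend and 1.13 log2 for the cycle, beside -0.02 log2 and 0.59 log2 over all genes tested. The p-values measure scatter around the curve. In whole worms, fewer cells of a type and less RNA per cell cannot be told apart, and with footprints alone neither can mRNA level and translation.

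**Figure D1:**
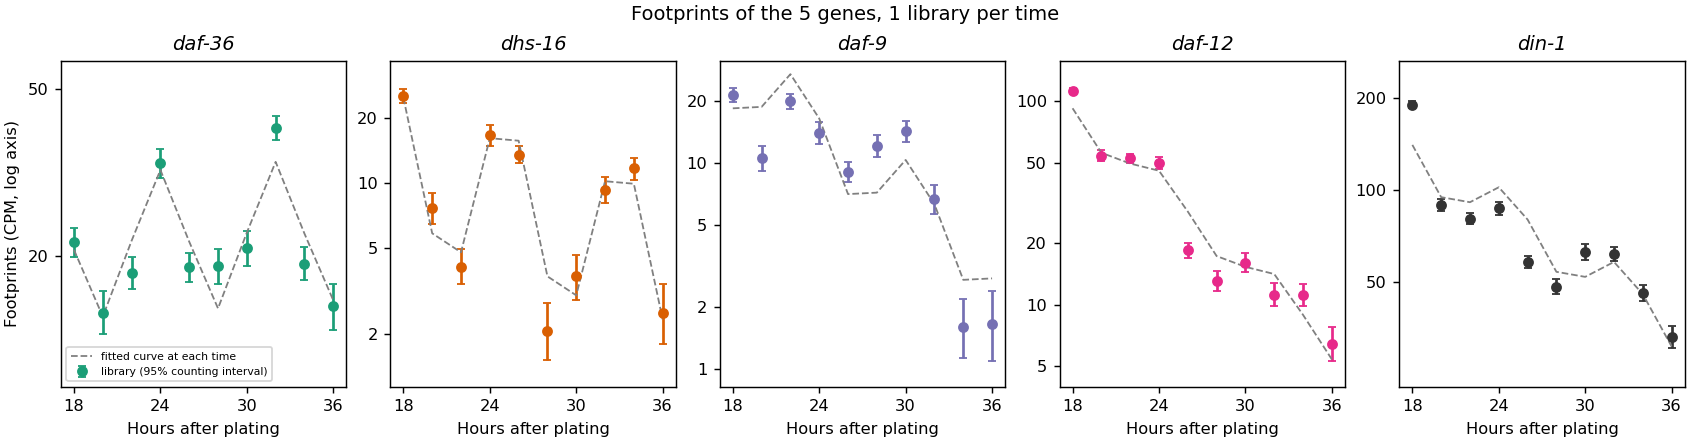
Footprints of daf-36, dhs-16, daf-9, daf-12 and din-1 in CPM on a log axis against hours after plating, with 1 point per library, its 95% counting interval as a bar and the fitted curve as a dashed line. The highest point of daf-36 is 40.5 CPM at 32 h, while the highest of each of the other four is at 18 h, with 113 CPM for daf-12 and 190 CPM for din-1.

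Daf-36 (WBGene00007536, chromosome V), the enzyme at the entry of the route, varied least of the 5, with a highest library 2.77 times its lowest. Its footprints, in CPM (counts per 1000000 of the scaled library total), were 21.6 at 18 h, 14.6 at 20 h, 18.2 at 22 h, 33.3 at 24 h, 18.8 at 26 h, 18.9 at 28 h, 20.9 at 30 h, 40.5 at 32 h, 19.2 at 34 h and 15.2 at 36 h. The 24 h and 32 h libraries, 8 h apart and grouped from these same values, stood above the other eight, which lay between 14.6 and 21.6 CPM. Their 95% counting intervals did not meet those of any other library. The fitted cycle spanned 2.19-fold and peaked at 32.0 ± 0.234 h (adjusted p = 0.00918). It rested in part on the later of those libraries: without the 32 h library the span was 0.89 log2, under the size needed for a call, with an adjusted p of 0.0466. The fitted change over 18 h was 0.15 ± 0.23 log2 (adjusted p = 0.649), and it was -0.17 log2 when counts were scaled by library totals alone.

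Dhs-16 (WBGene00000979, chromosome V), the dehydrogenase, combined a deep cycle with a fall. Its footprints were 25.3 CPM at 18 h, 7.61 at 20 h, 4.10 at 22 h, 16.6 at 24 h, 13.5 at 26 h, 2.07 at 28 h, 3.69 at 30 h, 9.27 at 32 h, 11.7 at 34 h and 2.51 at 36 h. Highs at 18 h, at 24 h to 26 h and at 32 h to 34 h were thus parted by lows at 20 h to 22 h and 28 h to 30 h, and the last library was low again. The lowest library held 41 of its footprints and the highest 742. The cycle spanned 6.58-fold with a fitted peak at 33.1 ± 0.153 h (adjusted p = 0.00289). The peak of daf-36 was fitted earlier, at 32.0 h, and the difference between those peaks was not tested. Each high was under the one before: the 26 h library had 0.535 of the 18 h level and the 34 h library 0.863 of the 26 h level. The fitted fall was 2.80-fold (adjusted p = 0.00936). With a period of 7.5 h in place of 8 h the trend was -0.98 log2, with an adjusted p of 0.0804, and was not called.

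Daf-9 (WBGene00000905, chromosome X), the cytochrome P450 that completes the hormone, stayed above 9 CPM up to 30 h and was near 1.6 CPM in the last pair of libraries. Its footprints were 21.5 CPM at 18 h, 10.6 at 20 h, 20.0 at 22 h, 14 at 24 h, 9.06 at 26 h, 12.1 at 28 h, 14.3 at 30 h, 6.69 at 32 h, 1.59 at 34 h and 1.65 at 36 h. The last pair of libraries, a grouping read off these same values, stood apart from the other eight, whose lowest was 6.69 CPM. The 95% counting interval was 1.13 to 2.18 CPM at 34 h and 1.09 to 2.40 CPM at 36 h, where the count was 27. The largest step between neighbouring libraries was to 1.59 CPM at 34 h, against 6.69 CPM at 32 h, or -2.07 log2. The fitted fall was 8.68-fold (adjusted p = 0.00666), and 0.544% of the genes tested had a lower fitted trend. The standard error of the trend was the largest of the 5. The distance from the fitted curve was -0.831 log2 at 20 h, 0.752 log2 at 28 h, -0.764 log2 at 34 h and -0.738 log2 at 36 h. The 8 h cycle of daf-9 was fitted at 1.34 ± 0.54 log2 and was not called (adjusted p = 0.18).

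Daf-12 (WBGene00000908, chromosome X), the receptor, had the deepest fitted fall of the 5, although its difference from that of daf-9 was not tested. Its footprints were 113 CPM at 18 h, 54 at 20 h, 52.4 at 22 h, 49.7 at 24 h, 18.5 at 26 h, 13.1 at 28 h, 16.1 at 30 h, 11.2 at 32 h, 11.2 at 34 h and 6.42 at 36 h. The course had a level stretch at 20 h to 24 h, where the values lay between 49.7 and 54 CPM, and a lower one from 26 h on. The step into the lower stretch was to 18.5 CPM at 26 h, against 49.7 CPM at 24 h (-1.43 log2), and the first step of the series was to 54 CPM at 20 h, against 113 CPM at 18 h (-1.07 log2). The 4 libraries from 18 h to 24 h did not overlap with the 6 from 26 h to 36 h. That split was read off these same values, and the share of all genes that part there was not counted. The fitted fall was 13.9-fold (adjusted p = 5.92e-05), and 0.222% of the genes tested had a lower fitted trend. Over the alternatives tried the trend lay between -4.11 and -3.43 log2. The cycle was fitted at 0.55 ± 0.32 log2 and was not called (adjusted p = 0.397).

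Din-1 (WBGene00008549, chromosome II), the corepressor, fell with a smaller fitted change than the receptor, a difference that was not tested. Its footprints were 190 CPM at 18 h, 89.5 at 20 h, 80.8 at 22 h, 87.2 at 24 h, 58.3 at 26 h, 48.5 at 28 h, 62.8 at 30 h, 61.8 at 32 h, 46.1 at 34 h and 33.3 at 36 h. The 18 h library was the one high value: the step to 89.5 CPM at 20 h, against 190 CPM at 18 h, was -1.08 log2, and every other step was smaller than 0.6 log2 in size. The fitted fall was 3.53-fold (adjusted p = 0.00108). Without the 18 h library the trend was -1.28 log2 and was still called. The cycle was fitted at 0.55 ± 0.25 log2 and was not called (adjusted p = 0.261). The counts sum reads of the long and the short protein forms of din-1, of which the short one is the known partner of DAF-12, so the forms were not measured separately here.

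**Figure D2:**
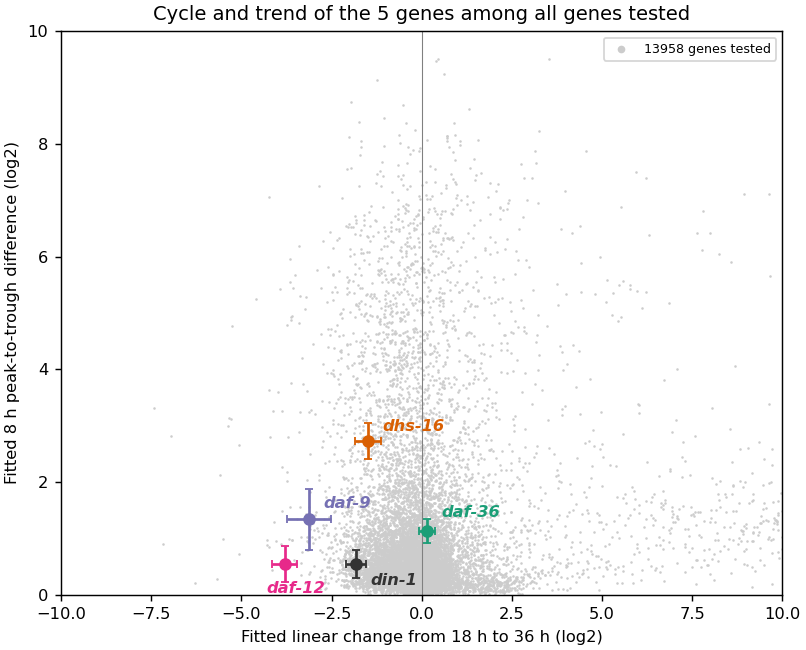
Fitted 8 h peak-to-trough difference (log2) against the fitted linear change from 18 h to 36 h (log2) for the 13958 genes tested (grey) and the 5 named genes (coloured, bars are SE), with 922 genes lying beyond the axes at 10 log2. Daf-12 and daf-9 sit at the left at -3.80 and -3.12 log2, dhs-16 stands highest of the 5 at 2.72 log2 and daf-36 lies near no trend at 0.15 log2.

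Libraries 8 h apart stand at the same point of an 8 h cycle, so their ratio shows the change beside it. Daf-12 was lower than 8 h earlier in 6 of 6 pairs, with ratios of 0.163 for 26 h over 18 h, 0.242 for 28 h over 20 h, 0.308 for 30 h over 22 h, 0.225 for 32 h over 24 h, 0.605 for 34 h over 26 h and 0.491 for 36 h over 28 h. Din-1 was also lower in 6 of 6 pairs, with ratios between 0.307 and 0.792. Lower in all 6 pairs were 13.3% of the genes tested, and 21.8% when CPM were taken without the composition factor. The first 4 ratios of daf-12 lay below its last 2, whereas daf-9 had its lowest ratios in the last 2 pairs, 0.176 for 34 h over 26 h and 0.136 for 36 h over 28 h. Daf-9 was lower in 5 of 6 pairs, the exception being 12.1 CPM at 28 h against 10.6 CPM at 20 h. Dhs-16 was lower in 5 of 6 pairs and daf-36 in 2 of 6.

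The direction of each 2 h step can likewise be set beside that of the step 8 h later. For daf-36, 3 of 5 steps were repeated in direction, and 5 of 5 in CPM without the composition factor. For dhs-16 the count was 3 of 5 on both scales. The step to 26 h was -0.30 log2 and the step to 34 h 0.33 log2, and likewise the step to 22 h was -0.89 log2 and the step to 30 h 0.83 log2. The genes with no called cycle repeated as many steps or more, with 4 of 5 for daf-12, 4 of 5 for daf-9 and 3 of 5 for din-1, so the count did not set the called genes apart. Without the composition factor it was 5 of 5 for daf-12, 3 of 5 for daf-9 and 4 of 5 for din-1. All 5 steps were repeated in 20.8% of the genes tested, and in 23.6% without the factor.

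**Figure D3:**
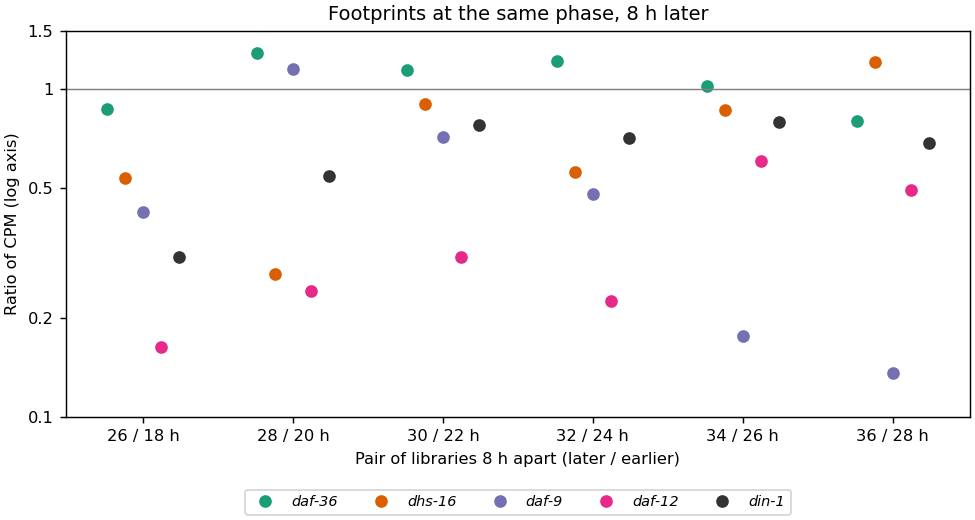
Ratio of CPM in the later over the earlier library of each of the 6 pairs 8 h apart, on a log axis, with 1 point per gene. All 6 points of daf-12 and din-1 lie under a ratio of 1, and the 2 last points of daf-9, at 0.176 and 0.136, are the lowest of those pairs.

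Ratios of counts within a library do not depend on how libraries are scaled. Footprints of din-1 per footprint of daf-12 were 1.68 at 18 h, 1.66 at 20 h, 1.54 at 22 h, 1.75 at 24 h, 3.16 at 26 h, 3.71 at 28 h, 3.90 at 30 h, 5.53 at 32 h, 4.13 at 34 h and 5.18 at 36 h. The ratio of corepressor to receptor thus changed little up to 24 h, lying between 1.54 and 1.75. Every later library held more corepressor footprints per receptor footprint than any of those did, a split read off these same values. Footprints of daf-36 per footprint of daf-9, the first enzyme over the last, were 1.00 at 18 h, 1.38 at 20 h, 0.911 at 22 h, 2.37 at 24 h, 2.07 at 26 h, 1.56 at 28 h, 1.46 at 30 h, 6.05 at 32 h, 12 at 34 h and 9.19 at 36 h. The last 3 libraries stood above the other seven. Footprints of daf-9 per footprint of daf-12 went up and came down again, with 0.190 at 18 h, 0.928 at 28 h, 0.887 at 30 h, 0.143 at 34 h and 0.257 at 36 h.

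**Figure D4:**
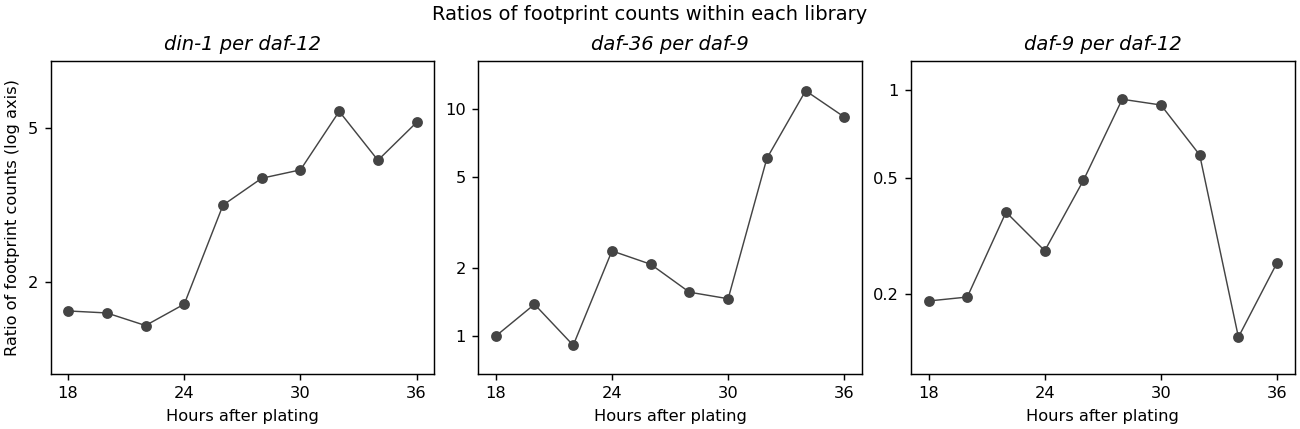
Ratios of footprint counts within each library, on a log axis, against hours after plating, for din-1 per daf-12, daf-36 per daf-9 and daf-9 per daf-12, with 1 point per library. The first ratio lies between 1.54 and 1.75 up to 24 h and between 3.16 and 5.53 from 26 h on, the middle one is highest at 34 h (12), and the last one is highest at 28 h (0.928).

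Between genes, levels were compared per kilobase of the longest coding sequence, since the genes differ in length. The proteins run from 388 residues for DHS-16 and 428 for DAF-36 through 572 for DAF-9 and 753 for DAF-12 to 2407 for the longest form of DIN-1. The mean level over the 10 libraries was 17.2 CPM per kilobase for daf-36, 15.3 for daf-12, 10.5 for din-1, 8.27 for dhs-16 and 6.50 for daf-9. The ranges over the 10 libraries overlapped for all neighbours in this order. The order itself turned over with time. At 18 h the level was 50.1 CPM per kilobase for daf-12, 26.3 for din-1, 21.7 for dhs-16, 16.8 for daf-36 and 12.5 for daf-9. At 36 h it was 11.8 for daf-36, 4.61 for din-1, 2.84 for daf-12, 2.15 for dhs-16 and 0.962 for daf-9. Daf-36 thus stood below daf-12, din-1 and dhs-16 at 18 h and above them at 36 h, while daf-9 was last at both times. These libraries stand at different points of an 8 h cycle. At 34 h, the same point as 18 h, the level was 14.9 for daf-36, 10.0 for dhs-16, 6.39 for din-1, 4.94 for daf-12 and 0.929 for daf-9. Daf-9 was not last throughout: at 28 h it had 7.07, above din-1 (6.72), daf-12 (5.79) and dhs-16 (1.78). For din-1 and daf-12, with 7 and 10 coding transcripts in the annotation, shorter forms would give a higher level per kilobase than the longest form used here.

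Profiles were compared by Pearson's r of log2 CPM over the 10 libraries, which share their time course, so r is given as a description. Daf-12 and din-1 had the closest profiles of any pair of the 5 (r = 0.94), followed by daf-9 with daf-12 (r = 0.75) and daf-9 with din-1 (r = 0.74). Daf-36 with daf-12 had the lowest (r = 0.02). Among 5112 genes (5113 for dhs-16) with a mean of at least 10 CPM and a gene-class name, those nearest to daf-36 were adk-1 (r = 0.934), an adenosine kinase, elo-1 (r = 0.930), a fatty acid elongase, cyp-44A1 (r = 0.927), a cytochrome P450, hpd-1 (r = 0.919), of tyrosine breakdown, and kynu-1 (r = 0.913), a kynureninase. Those nearest to dhs-16 were rml-5 (r = 0.978), dhs-5 (r = 0.978), another short-chain dehydrogenase, fasn-1 (r = 0.976), fatty acid synthase, gst-12 (r = 0.972), a glutathione S-transferase, and zmp-2 (r = 0.970), a zinc metalloprotease. The fitted cycles of these 5 neighbours of dhs-16 spanned 2.55 to 4.30 log2, and that of dhs-16 itself 2.72 log2.

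Those nearest to daf-9 were hmbx-1 (r = 0.973), a homeobox gene, let-19 (r = 0.973), a Mediator subunit, smp-1 (r = 0.969), a semaphorin, myrf-2 (r = 0.969), and orc-2 (r = 0.967), of the origin recognition complex. Of these only hmbx-1 had a trend as deep as that of daf-9, at -4.30 ± 0.88 log2, and the other four lay between -1.16 and -0.59 log2. Those nearest to daf-12 were sbt-1 (r = 0.983), a chaperone of neuropeptide processing, pghm-1 (r = 0.977), which amidates neuropeptides, txt-14 (r = 0.976), syd-9 (r = 0.973), a zinc-finger gene, and srlf-32 (r = 0.973). Their fitted trends lay between -1.54 and -0.97 log2, beside -3.80 log2 for daf-12. Those nearest to din-1 were hbl-1 (r = 0.964), txt-14 (r = 0.960), dct-17 (r = 0.959), spig-9 (r = 0.945) and srlf-28 (r = 0.944). Hbl-1, the Hunchback-like timing factor, fell by 3.90 ± 0.28 log2, further than din-1. An r of at least 0.9 was reached by 90 of these genes for daf-12, 67 for dhs-16, 60 for daf-9, 35 for din-1 and 11 for daf-36.

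Of 9 listed genes that handle sterols around the hormone, 6 were tested. Of these, 1 was called as oscillating, beside 22.7% of all genes tested, and 1 as rising, beside 15.7%, and 0 were called as falling by edgeR or by DESeq2 (unadjusted p under 0.05 for a trend in either direction in 2), with a median trend of -0.20 log2. Strm-1, a sterol methyltransferase that draws sterols away from hormone synthesis, cycled by 5.09 ± 0.51 log2 with a fitted peak at 33.1 h, the same fitted hour as dhs-16 (adjusted p = 0.00258). Its footprints alternated, with 56.6 CPM at 18 h, 2.43 at 28 h and 47.0 at 34 h. Ncr-2 is one of the pair of Niemann-Pick C1 homologues that move cholesterol in cells. Its fitted rise was 6.94 ± 1.37 log2 (adjusted p = 0.00204), with 9.65 CPM at 34 h, against 0.272 CPM at 18 h. The last library had 7.15 CPM. Ncr-2 was hardly counted early on: no library before 30 h exceeded 0.435 CPM, and the lowest count was 1. The size of its fitted rise thus rests on low counts and is not a measured fold change. Hsd-1, a 3-hydroxysteroid dehydrogenase of the XXX cells, had 0 counts in all 10 libraries. A limit of 3 counts, which covers counting error only, equals 0.09 to 0.183 CPM per library. Whether reads of hsd-1 could be counted with the annotation used was not tested.

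Other genes of the XXX cells were hardly counted. The highest count in any library was 5 for sdf-9, 3 for eak-3, 3 for eak-4 and 12 for eak-6, so the share of daf-9 footprints from these cells cannot be read from them. Eak-7, the only one of the 6 listed that was tested, stayed between 26.0 and 30.7 CPM and was not called.

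Genes that act with daf-9 and daf-12 in the dauer decision were called in part. In the list of insulin, TGF-beta and cGMP signals 8 of 20 tested genes were called as falling, beside 10.8% of all genes tested, and 1 as oscillating, beside 22.7%, with a median trend of -0.90 log2. The TGF-beta ligand daf-7 fell by 2.11 ± 0.16 log2 (adjusted p = 1.47e-05) and the insulin-like daf-28 by 1.63 ± 0.21 log2 (adjusted p = 0.000324), both less steeply fitted than daf-12, although the difference was not tested. Ins-4, another insulin-like gene, had a trend of -2.55 ± 0.62 log2 and a cycle of 2.82 ± 0.56 log2. Its fall was lost without the 18 h or the 34 h library, and its cycle at a period of 8.5 h and without the 24 h or the 32 h library. The call for tax-2, a subunit of the cGMP-gated channel, at -1.54 log2, was lost with DESeq2 and without any one of the 22 h, 34 h or 36 h libraries. The count of falling genes was 13 with library totals alone and 5 without the 34 h library. Of 11 genes listed for synthesis of the dauer pheromone, 9 were found by symbol and tested. Of these 9, 5 were called as oscillating, beside 22.7% of all genes tested, and 3 as falling, beside 10.8%. The list holds acox-1.2, an acyl-CoA oxidase, with a cycle of 3.1 ± 0.38 log2 and a trend of -2.45 ± 0.41 log2, and acox-3, with a cycle of 1.91 ± 0.32 log2 and a trend of -1.78 ± 0.36 log2. Acox-1.4 cycled by 2.01 ± 0.35 log2, a call lost at a period of 8.5 h and without the 22 h or the 30 h library. It also holds acs-20, an acyl-CoA synthetase known from the cuticle barrier, with a cycle of 3.82 ± 0.39 log2.

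Among 10 tested genes of stage timing and gonad migration that act with daf-12, 3 were called as falling, beside 10.8% of all genes tested, 1 as rising, beside 15.7%, and 1 as oscillating, beside 22.7%. Hbl-1, which daf-12 and the let-7 family of microRNAs act on, had 1.59 CPM at 36 h, against 41.6 CPM at 18 h (adjusted p = 1.15e-05). Lin-29, the zinc-finger factor at the end of the timing pathway, rose by 5.26 ± 0.59 log2 (adjusted p = 0.000386), with 32.2 CPM at 34 h, against 1.02 CPM at 18 h. Lin-42, the period homologue, cycled by 3.43 ± 0.28 log2. The fall of lin-41, at -3.05 ± 1.07 log2, had an adjusted p of 0.0418. The course was not a steady fall, with 64.6 CPM at 18 h, 76.0 at 22 h, 5.98 at 30 h and 25.1 at 36 h. The call was lost with no filter on low counts, with a period of 8.5 h and without any one of the 18 h, 20 h, 22 h, 26 h, 32 h or 34 h libraries.

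Of 12 other nuclear receptors, 3 were called as falling, beside 10.8% of all genes tested, and 2 as oscillating, beside 22.7%, with a median trend of -0.72 log2. Their median cycle was 1.11 log2, beside 0.59 log2 over all genes tested. In edgeR's F-test the unadjusted p for the cycle was under 0.05 in 7 of the 12, beside 6404 of 13958 genes. The receptors closest to daf-12 in sequence, nhr-8 and nhr-48, were fitted at -0.35 ± 0.17 and -0.74 ± 0.13 log2 and were not called, beside -3.80 ± 0.35 log2 for daf-12. Nhr-91 fell by 2.32 ± 0.23 log2 and cycled by 3.03 ± 0.21 log2. Nhr-67 fell by 1.91 ± 0.31 log2 and unc-55 fell by 1.88 ± 0.39 log2. Nhr-41 cycled by 1.96 ± 0.41 log2, a call lost at a period of 8.5 h and without any one of the 20 h, 22 h, 24 h, 30 h or 32 h libraries. Of 9 deacetylase and other corepressor genes, 0 were called by edgeR or by DESeq2, with an unadjusted p under 0.05 for the cycle in 1 and for the trend in 3. Their median trend was -0.13 log2, beside -1.82 ± 0.28 log2 for din-1.

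**Figure D5:**
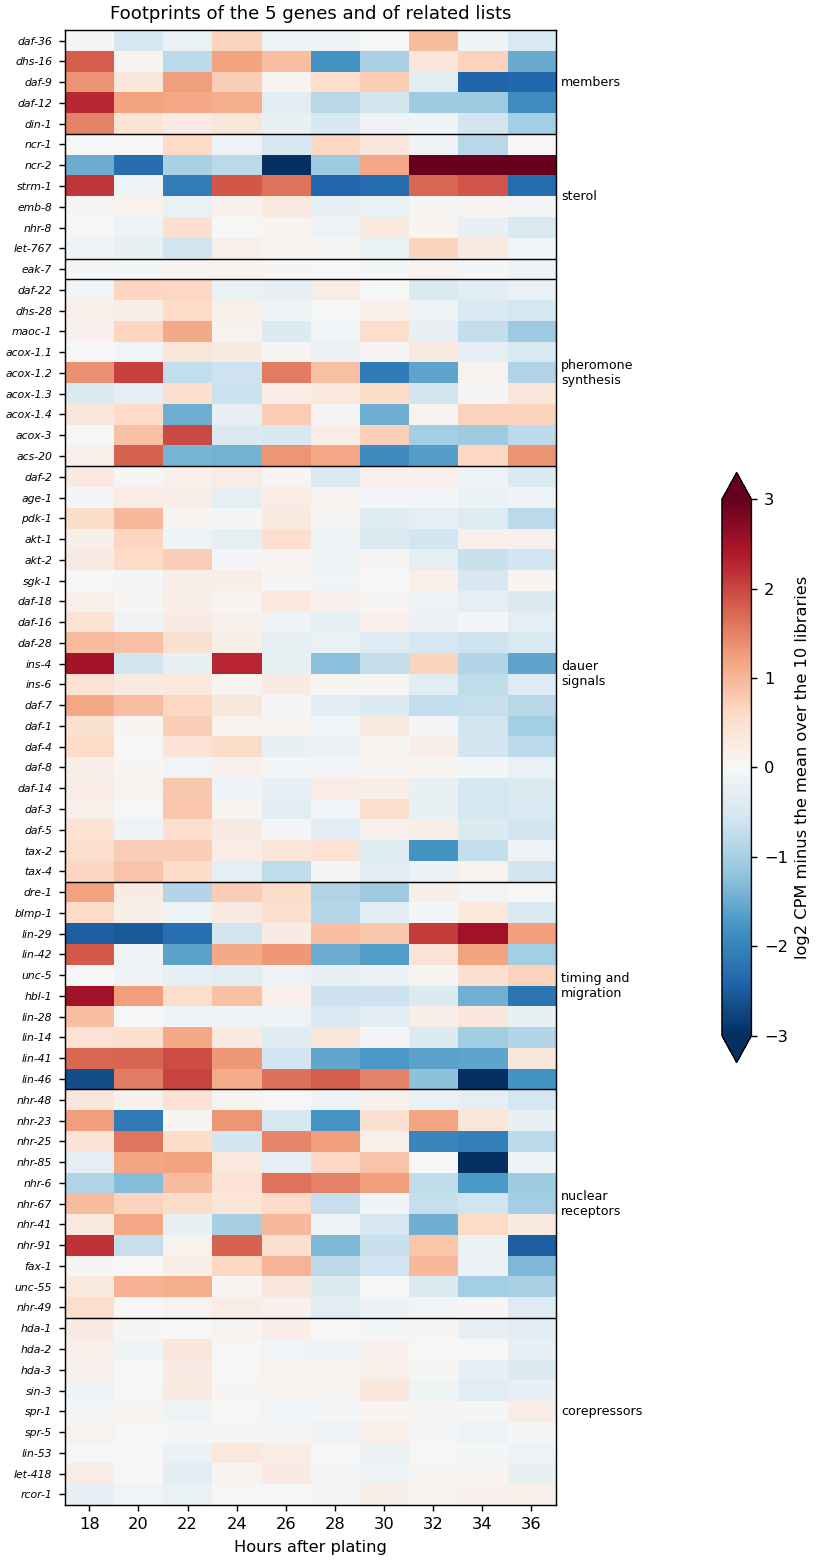
Log2 CPM minus the mean over the 10 libraries for the 5 genes and for each tested gene of the related lists, with 1 column per library from 18 h to 36 h and colours limited at 3 log2. Daf-12, daf-9 and din-1 turn from red to blue with time as hbl-1 and daf-7 do, while lin-29 and ncr-2 turn from blue to red and strm-1 alternates as dhs-16 does.

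Markers of several tissues in which the 5 genes are known to act moved over the same hours, while no marker of body-wall muscle was called. The summed level of 4 epidermal markers lay between 83.9 CPM (36 h) and 984 CPM (18 h), of which the cycling collagen dpy-7 held 838 CPM at 18 h. One of the 4, the epidermal factor elt-1, fell by 1.95 ± 0.27 log2. The sum of 4 seam markers lay between 7.58 CPM (36 h) and 331 CPM (22 h), of which the cycling grd-10, not called as falling, held 310 CPM at 22 h. The other three were called as falling, each at no more than 24.4 CPM in any library. The sum of 3 neuronal markers lay between 130 CPM (30 h) and 207 CPM (18 h), of which snb-1, with a trend of -0.21 ± 0.14 log2, held 125 CPM at 18 h. Of the 3, 1 was called as falling, rab-3, at -1.36 ± 0.10 log2. Unc-119 was fitted at -0.80 ± 0.12 log2, under the size needed for a call. The sum of 3 markers of spermatheca and somatic gonad went the other way, with 38.2 CPM at 36 h, against 2.21 CPM at 18 h. Of the 36 h sum, sth-1 held 28.5 CPM, and 2 of the 3 were called as rising. The remaining marker, lag-2, made up the whole sum at 18 h and was at its lowest, 1.34 CPM, at 36 h. Its trend of -1.27 ± 0.52 log2 was not called. The defining marker sth-1 was at 0 counts in each library from 18 h to 24 h. The sum of 4 intestinal markers lay between 2800 CPM (36 h) and 6690 CPM (32 h), of which the protease asp-1 held 6610 CPM at 32 h. The other intestinal markers were not highest there: elt-7, the 1 of the 4 called as oscillating, was at its lowest, 2.80 CPM, in that library. For 2 markers of body-wall muscle the sum lay between 6140 CPM (24 h) and 10300 CPM (36 h), with 0 called. For 2 pharyngeal markers it lay between 137 CPM (36 h) and 457 CPM (22 h). Of these, myo-2 was called as oscillating, at 1.45 ± 0.26 log2, and pha-4 as falling, at -1.21 ± 0.31 log2. The part of these shifts in the values of daf-9, daf-12 and daf-36 was not tested.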

How the data were processed

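The authors deposited a table of unscaled footprint counts by gene and a table of normalized log2 values. Per the labels' protocols, RNA of 28 to 30 nucleotides was isolated from monosomes. The submitters' processing notes name Bowtie. Not given in the sources used here are its version, the genome build, the annotation, the counting rule and the handling of strand. The deposited log2 values equal the counts scaled to the mean library total plus 8, within 5e-05. Symbols came from Ensembl 115 (19513 of 20182 identifiers matched), and 1663 genes had 0 counts throughout.

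A gene was tested if at least 3 libraries exceeded the CPM that 10 counts give in a library of median size. The edgeR 4.0.16 model (R 4.3.3, TMM factors 0.828 to 1.16, robust quasi-likelihood) had 4 terms (intercept, time, and cosine plus sine of an 8 h period) and 6 residual degrees of freedom. The p-values were adjusted by the Benjamini-Hochberg method over 13958 genes. CPM in the text use the TMM-scaled totals. Counting intervals are exact Poisson intervals (95%) and, like limits for a count of 0, cover counting error only. The fit was tested on simulated data. Alternatives were other scalings, no filter, DESeq2 1.42.0, limma 3.58.1 on the deposited log2 values, a period of 7.5 h or 8.5 h, 4 phases, quadratic time, no minimum size and leaving out each library. Those for the lists were chosen after the data had been seen. Genes were named by rule: the 5 genes, the 5 nearest profiles to each, and up to 4 called genes per list with the largest sizes, besides genes needed to say what a list holds. The genes and lists were chosen with earlier results of these data known. No sequences are printed.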

Additional observations from a re-analysis of the deposited data

How the results depend on the processing

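Over 10 results of the 5 genes (cycle and trend of each), 193 of 195 values under the alternatives kept their side of the threshold. The exceptions were the trend of dhs-16 at a period of 7.5 h (-0.98 log2) and the cycle of daf-36 without the 32 h library. The setting without a minimum size reuses the main fit. Its values for the 5 genes could not change side, as none was kept from a call by its size alone. With each library left out in turn, the cycle lay between 0.89 and 1.32 log2 for daf-36, 2.49 and 2.98 for dhs-16, 0.97 and 1.72 for daf-9, 0.38 and 0.77 for daf-12 and 0.47 and 0.69 for din-1. The trend lay between 0.03 and 0.33 log2 for daf-36, -1.66 and -1.21 for dhs-16, -3.56 and -2.61 for daf-9, -4.03 and -3.43 for daf-12 and -1.90 and -1.28 for din-1. Oscillating genes numbered 2480 to 3127, falling genes 1190 to 1555 and rising genes 1557 to 2179. Without a minimum size 4796 genes oscillated and 2635 fell. Library totals alone shifted the median trend by -0.312 log2, which gave 2437 falling and 1940 rising genes, 44.3% of calls rising in place of 59.2%. The falls of daf-12, daf-9, din-1 and dhs-16 were called on both scales. Counts of the lists moved by over 1.5 times under some alternatives: 0 to 7 oscillating and 5 to 13 falling of the dauer signals, 4 to 8 and 3 to 6 of the pheromone genes, 1 to 4 and 3 to 6 of the nuclear receptors, 0 to 1 rising of the nuclear receptors, 1 to 3 oscillating and 1 to 2 rising of the timing genes, 1 to 2 oscillating of the sterol genes, 0 to 1 falling of the XXX cell genes, and 0 to 1 of the deacetylase genes in each class. No paired analysis was possible because each time has 1 library. Depth limits low counts such as those of daf-9 at 34 h and 36 h, dhs-16 at 28 h and 36 h, and the XXX cell genes. The cause of the shifts was not tested.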
